A study of Mus musculus with 3 samples.

Results

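The cells described here are intestinal epithelial barcodes that held a goblet cell transcript and a Paneth cell transcript at the same time. They were chosen by 3 measured shares of a barcode's unique molecular identifiers (UMIs, each counted as 1 captured mRNA molecule): *Tff3* at least 2%, *Lyz1* at least 0.2% and *Defa24* under 5%. Of 39227 barcodes kept in 3 libraries, 97 (0.247%) met the rule, and these are called *Lyz1*-rich barcodes. The 6408 barcodes at the same *Tff3* and *Defa24* limits but with *Lyz1* under 0.2% are called *Lyz1*-poor. As further references, the 1196 barcodes with *Defa24* at 5% or more are called Paneth-like, and an enterocyte-like group served to read the level of free RNA.

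The study asked what loss of the transcription factor *Lef1* did to intestinal adenomas that start from *Apc* loss, with droplet 3′ single-cell RNA sequencing of small intestinal cells sorted for the epithelial surface protein EpCAM. All 3 mice, the WT control included, were C57BL/6 and received 2 doses of 2 mg tamoxifen at 7 to 8 weeks of age. The *LApc* mouse carried Lgr5-CreERT2 and floxed *Apc* and was taken at day 29. The *LApcL* mouse carried Lgr5-CreERT2, floxed *Apc* and floxed *Lef1* and was taken at day 21, as was the WT mouse. The Cre is driven from the *Lgr5* locus, so recombination starts in crypt stem cells, and cells that escaped recombination remain in the same tissue. Each genotype had 1 library from 1 mouse, so genotype, mouse, day and library cannot be told apart, no test between genotypes was possible, and intervals below are 95% exact intervals that cover counting error only.

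Goblet cells secrete the gel-forming mucin Muc2 with companions such as Tff3, Zg16, Fcgbp and Clca1, and are spread along crypt and villus. Paneth cells sit at the crypt base and secrete lysozyme (*Lyz1*), alpha-defensins and other antimicrobial proteins, and they also send Wnt and Notch signals to neighbouring stem cells. Both belong to the secretory lineage that depends on Atoh1, and cells with granules of both kinds are known as intermediate cells.

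*Lyz1* (chromosome 10, 117287797 to 117292868, minus strand, GRCm38) has a close neighbour, *Lyz2*, the lysozyme of macrophages. The 250 bases upstream of each are shown to compare the pair. They lie outside the transcripts and do not bear on how reads were assigned. The sequences are from RefSeq (GRCm38.p6), 5′ to 3′ on the minus strand, at chr10:117292869-117293118 for *Lyz1* and chr10:117282273-117282522 for *Lyz2*, with capitals at positions that differ between them in the alignment.
Lyz1: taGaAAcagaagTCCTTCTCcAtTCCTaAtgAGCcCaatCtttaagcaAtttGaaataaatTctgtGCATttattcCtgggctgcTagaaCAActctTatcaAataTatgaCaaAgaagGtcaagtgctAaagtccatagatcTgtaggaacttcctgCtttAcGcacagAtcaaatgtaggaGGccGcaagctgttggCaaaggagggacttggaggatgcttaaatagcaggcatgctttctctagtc
Lyz2: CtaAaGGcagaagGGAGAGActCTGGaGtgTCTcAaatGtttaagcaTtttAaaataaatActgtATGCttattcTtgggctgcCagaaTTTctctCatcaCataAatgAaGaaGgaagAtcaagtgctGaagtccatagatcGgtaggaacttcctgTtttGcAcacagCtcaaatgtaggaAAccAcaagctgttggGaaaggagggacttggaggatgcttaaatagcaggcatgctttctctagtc
Over 252 aligned positions 200 were identical (79.4%), and over the 100 bases next to the gene 92 of 100. The last 300 bases of the transcripts, where 3′ reads fall, were 93.8% identical, so some reads may not tell the genes apart. The *Lyz1*-rich barcodes held 1367, 218 and 4862 *Lyz1* UMIs in WT, *LApc* and *LApcL*, against 3, 0 and 1 *Lyz2* UMIs.

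The *Lyz1*-rich barcodes numbered 45 in WT, 8 in *LApc* and 44 in *LApcL*. Of all barcodes at the *Tff3* and *Defa24* limits they made up 1.26% in WT (45 of 3571, interval 0.921 to 1.68%), 0.421% in *LApc* (8 of 1898, 0.182 to 0.829%) and 4.25% in *LApcL* (44 of 1036, 3.10 to 5.66%). The share was thus highest in the *LApcL* library and lowest in the *LApc* library, and the 3 intervals did not overlap. Of all kept barcodes, the shares were 0.395%, 0.0736% and 0.259%, so the WT library was highest on that denominator. With *Lyz1* at 0.1% or more, the first set of shares was 3.78%, 1.21% and 7.05%, and with *Lyz1* at 0.5% or more 0.196%, 0.105% and 2.80%. With *Tff3* at 4% or more, the *LApcL* share was 1.85% (13 of 703) and the WT share 1.09% (28 of 2579), a narrower gap.

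*Lyz1* also reached 0.2% outside the *Tff3*-high barcodes, mostly in *LApcL*. Among enterocyte-like barcodes, which should lack the transcript, 2 of 951 (0.210%) in WT, 1 of 2103 (0.0476%) in *LApc* and 6 of 726 (0.826%) in *LApcL* passed the *Lyz1* limit. Among all barcodes with *Tff3* and *Defa24* both low (under 0.5% and 5%), 9 of 6341 (0.142%), 68 of 7885 (0.862%) and 1200 of 15116 (7.94%) did. With the *Lyz1* and *Defa24* limits of the rule, 1343 barcodes of *LApcL* lay below the *Tff3* limit, against 20 in WT and 83 in *LApc*.

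**Figure D1:**
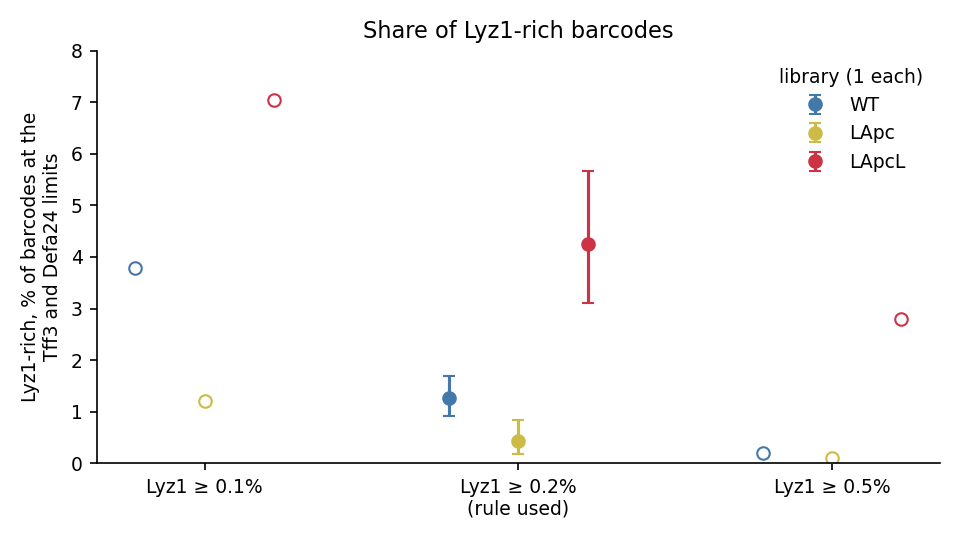
Share of barcodes at the *Tff3* and *Defa24* limits that were *Lyz1*-rich (y axis, percent), at *Lyz1* limits of 0.1%, 0.2% (rule used) and 0.5% (x axis), coloured by library. Filled points with bars are shares at 0.2% with 95% exact binomial intervals, and open points without bars are shares at the other limits. With 1 mouse per genotype, the *LApcL* share of 4.25% at 0.2% lies above the WT share of 1.26% and the *LApc* share of 0.421%.

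The *Lyz1* share itself, which chose the barcodes, had its widest span in *LApcL*, from 0.224 to 14.3% with a median of 0.853%. The WT span was 0.205 to 0.932% (median 0.279%) and that of *LApc* 0.208 to 0.904% (median 0.318%). In UMIs per barcode the median was 77.5 for *LApcL* (11 to 703), 28 for WT (13 to 84) and 25 for *LApc* (4 to 58). WT barcodes stayed near the limit, with 38 of 45 under 0.5%, while 21 of 44 in *LApcL* were at 1% or more. The nearest barcodes inside and outside the *Lyz1* limit held 0.205% and 0.198% in WT, 0.208% and 0.199% in *LApc*, and 0.224% and 0.194% in *LApcL*. At the *Tff3* limit these were 2.06% and 1.94%, 2.35% and 1.69%, and 2.02% and 1.97%, and at the *Defa24* limit 4.94% and 5.79%, 4.73% and 5.37%, and 4.20% and 5.05%. In WT 17 barcodes lay just inside the *Lyz1* limit (0.2 to 0.25%) and 29 just outside (0.15 to 0.2%), so that membership was a range cut from a continuum there.

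*Tff3* (chromosome 17, 31125306 to 31129646), the trefoil peptide of mucus, had a median of 4.56%, 4.97% and 3.06% in the *Lyz1*-rich barcodes of WT, *LApc* and *LApcL*, below 5.80%, 7.83% and 5.72% in the *Lyz1*-poor ones. The *Lyz1*-rich barcodes of *LApcL* lay closest to the *Tff3* limit, with 14 of 44 under 2.5%. Depth was similar, with medians of 8327, 5718.5 and 7278.5 UMIs per *Lyz1*-rich barcode and 9112, 5416.5 and 7007.5 per *Lyz1*-poor barcode. The mitochondrial share was 3.01%, 7.15% and 2.65% against 3.29%, 3.62% and 3.03%, so the 8 *LApc* barcodes were higher in it. High doublet scores were assigned to 2 of 45, 1 of 8 and 9 of 44 *Lyz1*-rich barcodes (4.44%, 12.5% and 20.5%), against 16.1%, 16.5% and 16.3% of *Lyz1*-poor ones. Between 214 and 318 barcode sequences occurred in each pair of libraries, 4 of them those of *Lyz1*-rich barcodes, and no pair of *Lyz1*-rich barcodes shared one.

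The goblet label was checked against *Muc2* (chromosome 7, 141690340 to 141754693), the mucin that defines the cell type. In WT the lowest *Muc2* share was 0.0114%, the median 0.760% and the highest 2.53%, near the *Lyz1*-poor median of 0.856%. In *LApc* it ran from 0.342 to 3.78% with a median of 0.905%, against 1.16%. In *LApcL* it ran from 0 to 1.76% with a median of 0.155%, against 0.686%. All WT barcodes but 1 and all 8 *LApc* barcodes thus carried *Muc2* at 0.1% or more, but in *LApcL* the range reached down to 0. *Muc2* was under 0.1% in 19 of 44 *LApcL* barcodes (43.2%, interval 28.3 to 59.0%), and in 31 of 992 *Lyz1*-poor barcodes of that library (3.13%). The low *Tff3* of the *LApcL* barcodes moved with this, but among barcodes with *Tff3* under 3.5% the counts were still 18 of 30 *Lyz1*-rich (60%) and 30 of 233 *Lyz1*-poor (12.9%). For these 19 barcodes *Muc2* goes against the goblet label, so the whole set is called by its rule. Other goblet genes remained in them, with median *Fcgbp* and *Agr2* shares of 0.352% and 0.291%. The *LApcL* barcodes with *Muc2* at 0.1% or more had 0.550% and 0.464%. The split at 0.1% *Muc2* was chosen after the values were seen.

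*Zg16*, a lectin of the mucus, showed the same pattern. The WT barcodes held 0.103 to 21.5% of it (median 1.41%), the *LApc* barcodes 0.0760 to 24.1% (median 6.73%) and the *LApcL* barcodes 0 to 10.0% (median 0.0656%). The *Lyz1*-poor medians were 3.48%, 11.8% and 4.99%, so the median was lower in the *Lyz1*-rich barcodes of every library and near 0 in *LApcL* alone. *Spink4*, a secreted peptide of goblet and Paneth cells, instead had a median of 3.77% and 5.39% in WT and *LApc*, above 2.40% and 1.41% in *Lyz1*-poor barcodes, and of 1.03% in *LApcL*, below 1.93%. This *LApcL* direction was not fixed, as the 25 barcodes of *LApcL* with *Muc2* at 0.1% or more had a *Spink4* median of 2.29%.

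**Figure D2:**
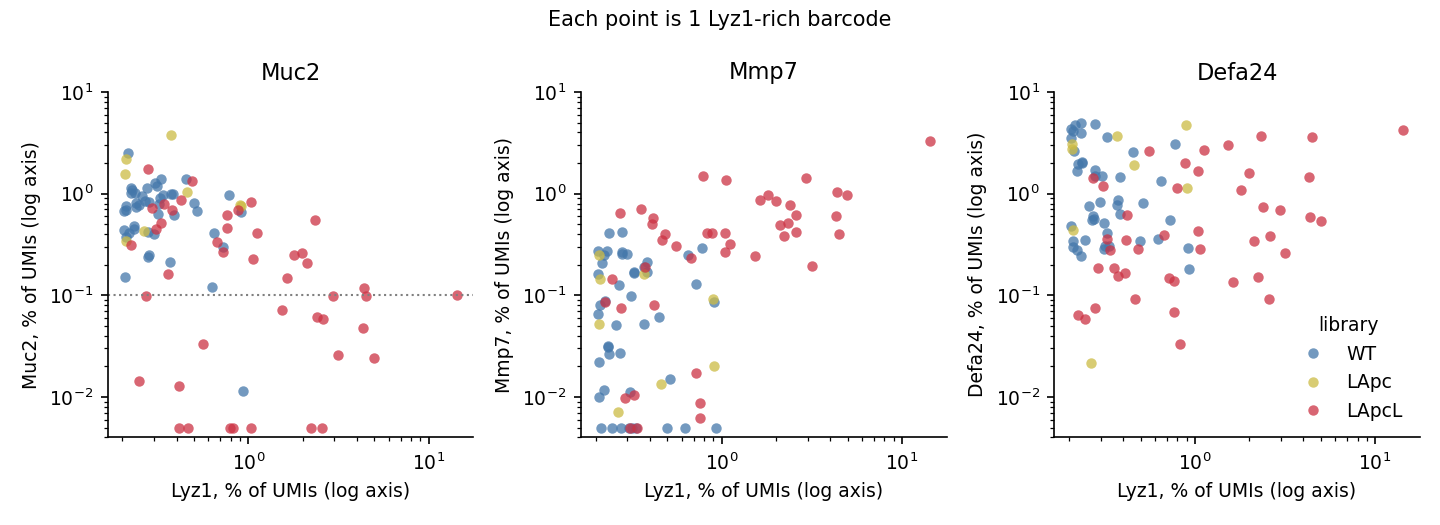
Shares of UMIs per *Lyz1*-rich barcode (percent, log axes), with *Lyz1* on the x axes and *Muc2*, *Mmp7* and *Defa24* on the y axes of 3 panels. Each point is 1 barcode coloured by library, values of 0 are drawn at 0.005%, and 19 of 44 *LApcL* barcodes and 1 of 45 WT barcodes lie under the dotted line at 0.1% *Muc2*.

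To describe the transcripts as a whole, UMIs were summed over the barcodes of a group within each library and scaled to a common total as CPM. The sums over *Lyz1*-rich barcodes came to 394959 UMIs for WT, 359120 for *LApcL* and 50533 for *LApc*, whose values are therefore the least precise. Because the rule itself separates *Lyz1*-rich from *Lyz1*-poor barcodes, ratios between them are descriptions without a test. A gene was called when its ratio was past 2-fold in the same direction in all 3 libraries at a mean of at least 50 CPM. Of 2131 genes, 11 (0.516%) were called higher and 11 (0.516%) lower.

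Paneth antimicrobial genes were well represented among the higher calls. Of 14 genes of the Paneth list at the CPM minimum, without the genes of the rule, 5 were called higher (*Defa17*, *Defa21*, *Defa22*, *Gm7861* and *Mptx2*) and none lower, and 12 had ratios above 0 in all 3 libraries. The list's median log2 ratio was 1.45 in WT, 1.12 in *LApc* and 1.09 in *LApcL*, where the median of all genes was −0.01, 0.01 and 0.14. At a *Lyz1* limit of 0.5%, which left 7 WT and 2 *LApc* barcodes, the list's median was −0.0358 in WT and 0.0557 in *LApc*. With *Defa24* under 1% it was also much lower in WT and *LApc*, at the values given in the closing section. In WT the median *Defa24* share was 0.804% in *Lyz1*-rich and 0.358% in *Lyz1*-poor barcodes. *Defa21*, an alpha-defensin, had 2056, 376 and 359 CPM in the *Lyz1*-rich barcodes of the 3 libraries in the same order and 612, 120 and 131 CPM in the *Lyz1*-poor ones, with log2 ratios of 1.75 (1.65 to 1.85), 1.65 (0.91 to 2.29) and 1.45 (1.18 to 1.72). *Mptx2*, a pentraxin of Paneth cells, was sparse at 154, 79.2 and 19.5 CPM, with log2 ratios of 1.90, 2.66 and 1.26. The other 6 higher genes were *Defa20*, *Gm15308*, *Gm15315* and *Gm21002*, all at over 10-fold more CPM in Paneth-like than in *Lyz1*-rich WT barcodes, together with *Rnase1* and *Lgals1*, the last with 1 UMI in WT. The ratios of *Defa21* were alike in the 3 libraries, although the levels in WT were the highest. The defensins are a family of near-identical copies, so the assignment of reads to a single member is uncertain.

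*Mmp7* and *Ang4* differed from *Defa21* in that their ratio was largest in *LApcL*. *Mmp7* (chromosome 9, 7692090 to 7699585), the matrilysin that activates pro-defensins, stood at 1139, 772 and 4085 CPM in *Lyz1*-rich barcodes and at 476, 437 and 406 CPM in *Lyz1*-poor ones. The log2 ratio was 3.33 (3.24 to 3.42) in *LApcL*, where WT had 1.26 (1.12 to 1.39) and *LApc* 0.82 (0.33 to 1.27). Per barcode, the *Mmp7* share had a median of 0.406% in *LApcL* (0 to 3.28%), 0.0809% in WT (0 to 0.419%) and 0.0721% in *LApc* (0.00715 to 0.247%). The *LApcL* median was thus near the WT maximum, while the ranges overlapped. *Ang4* (chromosome 14, 51763878 to 51773590), an antimicrobial ribonuclease, stood at 760, 554 and 4107 CPM against 477, 317 and 529 CPM, with log2 ratios of 0.67 (0.50 to 0.83), 0.80 (0.21 to 1.34) and 2.96 (2.87 to 3.04). Per barcode, the *Ang4* share had a median of 0.148% in *LApcL* (0 to 4.89%) and 0.0275% in WT (0 to 0.589%), so single barcodes weigh on its sums. The WT ratio of *Ang4* was −1.42 in the 7 WT barcodes with *Lyz1* at 0.5% or more. In enterocyte-like barcodes of WT, *LApc* and *LApcL*, *Mmp7* stood at 26.0, 19.4 and 35.4 CPM and *Ang4* at 99.3, 24.4 and 32.5 CPM.

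To compare detection at 1 depth, every barcode was thinned to 3000 UMIs, which left out 1 *LApc* member. *Mmp7* was then found in 75.6% of *Lyz1*-rich barcodes of WT and 86.4% of *LApcL*, against 47.5% and 43.0% of *Lyz1*-poor barcodes and 6.52% and 7.99% of enterocyte-like barcodes. Before thinning, 80% of *Lyz1*-rich and 66.2% of *Lyz1*-poor WT barcodes had an *Mmp7* UMI. *Muc2* was found after thinning in 100% of WT members and 75% of *LApcL* members, against 99.7% and 99.3% of *Lyz1*-poor barcodes. Detection thus put *Mmp7* higher in the *Lyz1*-rich barcodes of both libraries and *Muc2* lower in those of *LApcL* alone.

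*Defa17*, *Defa20* and *Gm15308* shared this order. *Defa17* stood at 815, 277 and 2453 CPM in WT, *LApc* and *LApcL*, with log2 ratios of 1.43, 1.64 and 3.83, but 28.4% of its 881 UMIs in *LApcL* came from 1 barcode. *Defa20* reached a log2 ratio of 4.57 in *LApcL*, with 47.3% of its UMIs in 1 barcode, and *Gm15308* reached 4.69, with 75.2% in 1. These 3 values therefore rest in part on single barcodes. *Wnt3* and *Habp2* were sparse in every library. *Wnt3*, the ligand with which Paneth cells sustain stem cells, had 7 UMIs in 6 WT barcodes, 0 in *LApc* and 19 UMIs in 13 *LApcL* barcodes, which put the log2 ratio over *Lyz1*-poor barcodes at 1.49 (0.16 to 2.56) in WT and 3.32 (2.45 to 4.14) in *LApcL*. *Habp2*, a secreted serine protease, had 7, 0 and 35 UMIs.

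Outside the Paneth list, *Rnase1*, a secreted pancreatic-type ribonuclease, was among the 11 higher genes. It stood at 162, 119 and 323 CPM against 49.6, 40.7 and 60.4 CPM, with log2 ratios of 1.71 (1.32 to 2.07), 1.55 (0.09 to 2.68) and 2.42 (2.11 to 2.72), and its 6 UMIs in *LApc* lay in 1 barcode. *Cd24a*, a surface protein high in Paneth and crypt cells, stood at 630, 475 and 1075 CPM against 332, 208 and 264 CPM, with log2 ratios of 0.93, 1.19 and 2.02. *Sox9*, a transcription factor needed for Paneth cells, had a log2 ratio of 0.14 (−0.49 to 0.70) in WT and 1.66 (1.22 to 2.07) in *LApcL*, and *Hes6*, a factor of secretory precursors, 0.31 (−0.10 to 0.69) and 1.43 (1.15 to 1.71). The *Sox9* and *Hes6* intervals reach 0 in WT and not in *LApcL*. Both had under 5 UMIs in the *LApc* members.

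Few goblet cargo genes passed the call. Of 19 goblet list genes at the minimum, *Clca1* alone was called lower and none higher, and the median log2 ratio was 0.01 in WT, −0.54 in *LApc* and −0.69 in *LApcL*. *Muc2* stood at 7517, 11319 and 3283 CPM against 9368, 11039 and 7945 CPM, with log2 ratios of −0.32 (−0.37 to −0.27), 0.04 (−0.08 to 0.15) and −1.28 (−1.36 to −1.19). *Clca1*, a metalloprotease of the mucus, stood at 2388, 1524 and 1025 CPM against 4788, 3844 and 3896 CPM, with log2 ratios of −1.0, −1.34 and −1.93. *Zg16* was lower in each library, at −0.84, −0.90 and −1.61, and *Fcgbp*, a mucus scaffold protein, at −0.43, −0.88 and −1.18. With the *Lyz1*-poor barcodes weighted to the *Tff3* shares of the *Lyz1*-rich ones, a choice made after the data were seen, the *LApcL* ratios of *Muc2*, *Zg16* and *Clca1* were −0.62, −0.52 and −0.96, and the list's median was −0.29. With TMM scaling the list's median was −1.03 in *LApc* and −0.93 in *LApcL*, so which of these libraries was lower depended on the scaling. With the weighting to *Tff3* shares, without TMM scaling, the *LApcL* ratio of *Mmp7* was 3.26, close to the unweighted 3.33.

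The folding and secretion machinery did not stand apart. None of 18 genes of endoplasmic reticulum folding and none of 17 genes of the secretory pathway was called in either direction, with medians of 0.13, −0.22 and 0.08 and of 0.14, −0.42 and 0.03. The 10 secretory regulators at the minimum, such as *Atoh1* and *Spdef*, gave no call either, with medians of 0.16, −0.62 and 0.20. TMM scaling shifts all log2 ratios down by 0.02, 0.49 and 0.24 and lowers the share of genes above 0 from 50.5% to 24.0% in *LApc* and from 64.1% to 36.8% in *LApcL*, so small ratios in those libraries have no fixed sign.

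Enterocyte transcripts were lower in the *Lyz1*-rich barcodes. All 9 enterocyte genes at the minimum had ratios below 0 in all 3 libraries, 2 of them called (*Fabp1* and *Sis*), and their median was −0.88, −1.65 and −1.58. *Fabp1*, the fatty acid-binding protein of absorptive cells, stood at 327, 495 and 150 CPM against 769, 1959 and 543 CPM. Of 6 enteroendocrine genes at the minimum, 1 was called lower and none higher, and 4 had ratios below 0 in all 3 libraries. The called one, *Cck*, a gut hormone, was the lowest of all genes, at 43.0, 19.8 and 11.1 CPM against 314, 208 and 52.4 CPM, with log2 ratios of −2.87, −3.39 and −2.23, and *Reg1*, a secreted lectin, followed at −1.99, −3.22 and −1.38. The other called genes were *Ido1*, *Cps1*, *Muc3*, *Dmbt1*, *Mxd1* and *Slc5a1*, most of them known from absorptive cells. The summed enterocyte list took 4352, 4789 and 2019 CPM in *Lyz1*-rich barcodes, and *Ptprc*, the pan-leukocyte marker, had no UMI in any of them.

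**Figure D3:**
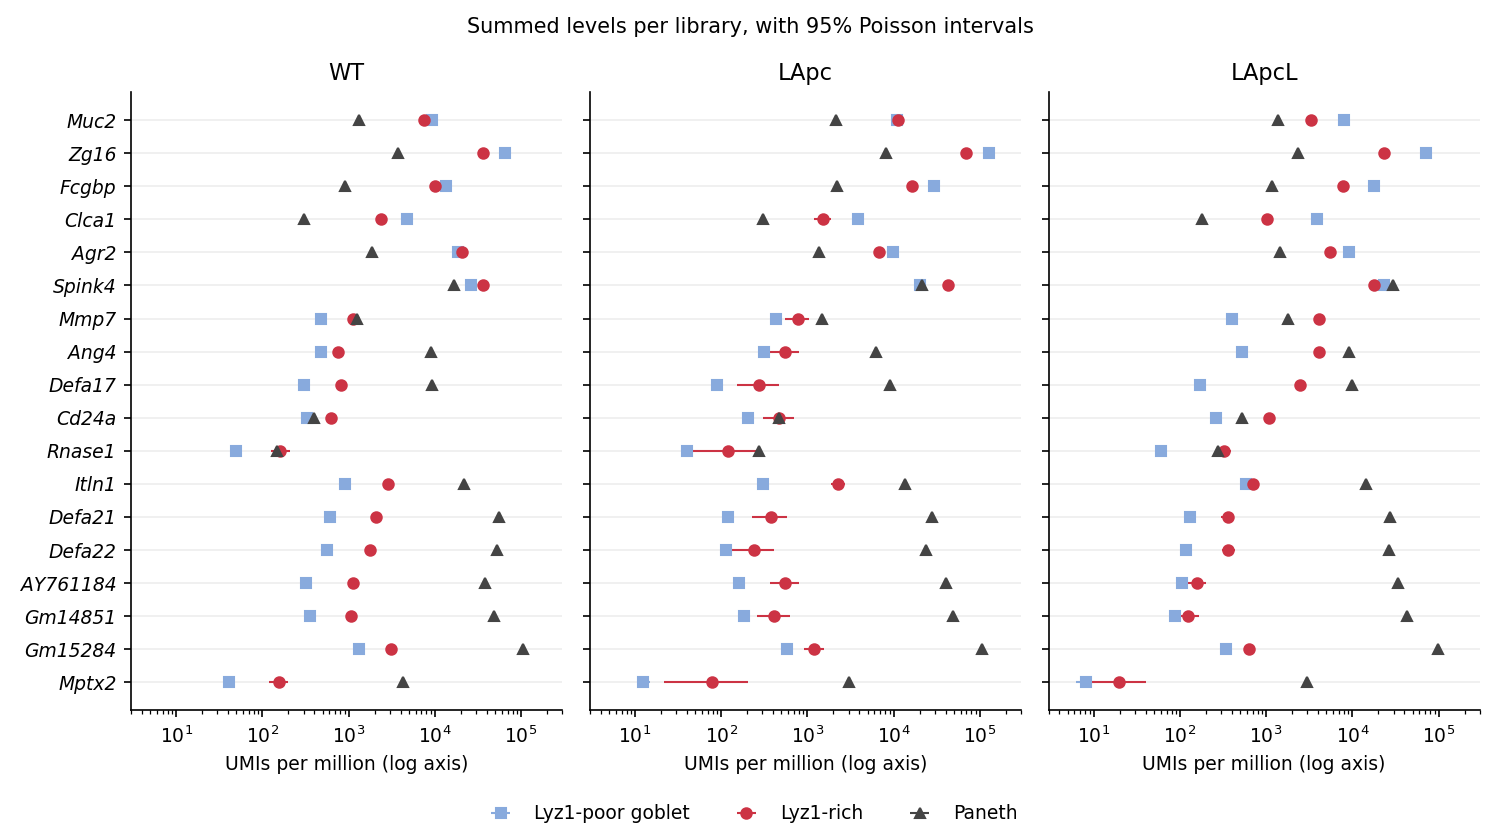
Summed levels (x axes, CPM, log scale) of the named genes (y axis) in *Lyz1*-poor (squares), *Lyz1*-rich (circles) and Paneth-like barcodes (triangles), with 1 panel per library and 95% exact Poisson intervals that cover counting error only. *Mmp7* in *Lyz1*-rich barcodes lies near the Paneth-like level in WT (1139 CPM) and above it in *LApcL* (4085 CPM), where *Muc2* (3283 CPM) lies between the *Lyz1*-poor and Paneth-like levels.

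Against the Paneth-like barcodes, the *Lyz1*-rich barcodes held little defensin. As the groups are set apart by *Defa24*, these ratios too are descriptions. Of 1525 genes, 903 (59.2%) were called higher and 26 (1.7%) lower in the *Lyz1*-rich barcodes, with a median log2 ratio of 1.97, 1.24 and 1.39 over all genes, since defensins take a large part of the UMIs of Paneth-like barcodes. Of 18 Paneth list genes at the minimum, 15 were called lower and none higher. *Gm14851*, a defensin-like gene, stood at 1053, 416 and 125 CPM against 49114, 49034 and 42702 CPM, with log2 ratios of −5.54, −6.88 and −8.41. *Mmp7* was among the 3 that were not called, with log2 ratios of −0.14 (−0.28 to 0.00), −0.96 (−1.45 to −0.50) and 1.19 (1.11 to 1.27). Only in *LApcL* was its CPM thus higher than in Paneth-like barcodes, and in every library its ratio lay below the median over all genes.

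Among goblet genes, *Zg16* had the highest ratio over Paneth-like barcodes by the value nearest 0, at log2 ratios of 3.30, 3.07 and 3.32, and *Fcgbp* followed at 3.47, 2.85 and 2.74. Of 17 goblet list genes at the minimum, 10 were called higher and none lower, a share near the 59.2% of all genes. *Agr2*, a disulfide isomerase needed for mucin folding, stood at 3.45, 2.33 and 1.94. In *LApcL* *Spink4* and *Ccl6* did not share this, at −0.72 (−0.76 to −0.68) and −0.03 (−0.18 to 0.12).

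The makeup of Paneth transcripts was next expressed per *Lyz1* UMI, a description in which *Lyz1* chose the *Lyz1*-rich barcodes and the *Defa24* limits set their defensins against those of Paneth-like barcodes. Of 22 Paneth list genes other than *Lyz1* and *Defa24*, 16 in WT, 20 in *LApc* and 17 in *LApcL* had fewer UMIs per *Lyz1* UMI in *Lyz1*-rich than in Paneth-like barcodes. *Gm14851* had 0.304 UMIs per *Lyz1* UMI in *Lyz1*-rich barcodes of WT and 0.00926 in those of *LApcL*, against 3.28 and 2.29 in Paneth-like barcodes. *Mmp7* had 0.329, 0.179 and 0.302 in *Lyz1*-rich barcodes of WT, *LApc* and *LApcL*, against 0.0838, 0.117 and 0.0959 in Paneth-like barcodes. In *Lyz1*-poor barcodes it had 2.11, 4.64 and 1.83. *Defa24* (chromosome 8, 21734494 to 21735471), which the rule capped, had 4.46 and 0.631 in WT and *LApcL*, against 15.8 and 12.4. *Mmp7*, which the rule did not use, was thus more abundant per *Lyz1* UMI than in Paneth-like barcodes. So were *Habp2*, *Wnt3*, *Nupr1* and *Guca2b* in WT and *LApcL*. With the *Lyz1*-poor levels subtracted, *Mmp7* had 0.205, 0.0793 and 0.276, in *LApc* below the Paneth-like 0.117. *Nupr1* then lay below the Paneth-like value in WT (0.0124 against 0.0303) and *LApcL* (0.0114 against 0.0164). *Guca2b* did so in *LApcL* (0.0231 against 0.0478) but not in WT. *Habp2* and *Wnt3* stayed above it in both libraries. The lower defensin values go with the *Defa24* limits. The part of free Paneth RNA was not tested. In enterocyte-like barcodes *Lyz1* stood at 165, 53.4 and 189 CPM, against 226, 94.2 and 222 CPM in *Lyz1*-poor and 3461, 4314 and 13539 CPM in *Lyz1*-rich barcodes of WT, *LApc* and *LApcL*. *Lyz1*-poor barcodes were thus near the enterocyte-like level.

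Within the *Lyz1*-rich barcodes, the *LApcL* library was set beside the WT library. With 1 library each, called means past 2-fold at a mean of at least 50 CPM, and of 2226 genes 156 (7.01%) were higher and 93 (4.18%) lower in *LApcL*. Since *LApcL* barcodes held more *Lyz1*, a difference in *Lyz1* goes with every ratio of this comparison. *Mmp7* and *Ang4* were higher by log2 1.84 (1.69 to 2.00) and 2.43 (2.25 to 2.62), where the same ratios in *Lyz1*-poor barcodes were −0.23 and 0.15. *Cd24a* had 0.77 (0.54 to 1.01) against −0.33, *Sox9* 1.25 (0.54 to 1.99) against −0.27, *Hes6* 1.27 (0.80 to 1.76) against 0.15, and *Rnase1* 1.00 (0.54 to 1.46) against 0.28. Of these 6 genes *Mmp7*, *Ang4*, *Sox9* and *Hes6* were past 2-fold, *Cd24a* and *Rnase1* were not, and all 6 differed by less than 1.5-fold between the *Lyz1*-poor barcodes.

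Of 18 Paneth list genes at the minimum, 5 were higher and 8 lower, with a median of −0.50, against −1.33 in *Lyz1*-poor barcodes. This median was 0.59 at a *Lyz1* limit of 0.5% and 0.15 at a *Tff3* limit of 4%, so its sign was not fixed. The lower genes were mostly defensins and lectins, which were lower in *Lyz1*-poor barcodes as well: *Defa21* had −2.52 against −2.22, *Mptx2* −2.99 against −2.35, *AY761184* −2.85 against −1.59 and *Gm14851* −3.07 against −2.03. *Itln1*, an intelectin that binds microbial sugars, had −2.02 against −0.64. Among Paneth list genes, *Mmp7*, *Ang4* and *Defa17* were thus higher in the *LApcL* library than in the WT library, with *Defa17* resting in part on a single barcode. *Ang4* was uneven too, with a highest *LApcL* share of 4.89% and a median of 0.148%. *Defa21*, *Defa22*, *Gm14851* and *Gm15284* were among those lower.

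Of 19 goblet list genes, 1 was higher and 7 were lower, with a median of −0.78, against −0.07 in *Lyz1*-poor barcodes. *Agr2* had −1.91 (−1.98 to −1.83) against −1.02, *Ccl6*, a chemokine, −1.76 (−1.93 to −1.60) against −0.40, *Muc2* −1.20 (−1.29 to −1.10) against −0.24, *Clca1* −1.22 (−1.40 to −1.04) against −0.30 and *Spink4* −1.0 (−1.05 to −0.96) against −0.15. The 1 higher gene, *Retnlb*, rested on 1 barcode with 84.7% of its UMIs. Folding and secretory pathway genes had medians of −0.73 and −0.50, near the −0.65 and −0.41 of *Lyz1*-poor barcodes. The share of all genes above 0 was 59.2% and was 44.4% with TMM scaling, a shift of 0.20 on the log2 scale.

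**Figure D4:**
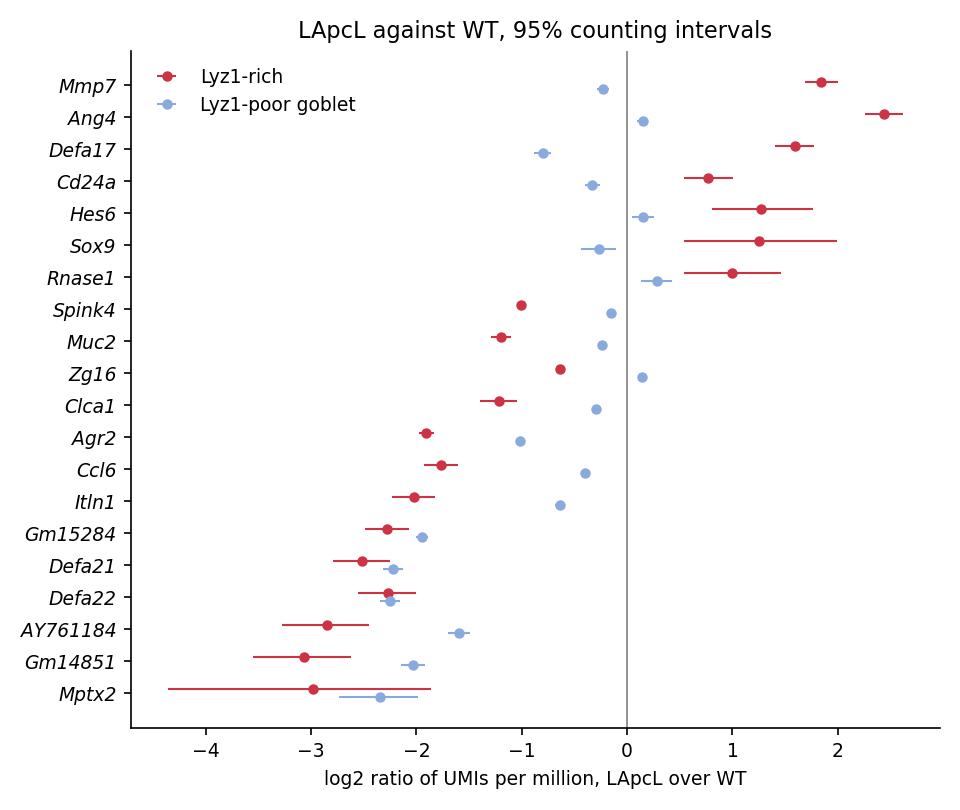
Log2 ratio of CPM, *LApcL* over WT (x axis), of the named genes (y axis) in *Lyz1*-rich (red) and *Lyz1*-poor barcodes (blue), with 95% conditional binomial intervals that cover counting error only. *Mmp7* (1.84 against −0.23) and *Ang4* (2.43 against 0.15) lie to the right of their *Lyz1*-poor values, and *Muc2* (−1.20 against −0.24) lies to the left.

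The genes with the highest ratios were mostly higher in *Lyz1*-poor barcodes too. *Ctsl*, the lysosomal protease cathepsin L, had 1 UMI in WT and 57 UMIs in *LApcL*, at 5.97 (3.43 to 11.30) against 2.86. *Ifitm3*, an interferon-induced membrane protein, stood at 50.6 and 1167 CPM, at 4.53 (3.88 to 5.25) against 3.63, and *S100g*, a calcium-binding protein, at 30.4 and 716 CPM, at 4.56 (3.73 to 5.53) against 3.06. At the other end, *Gip* and *Mptx1* were lower, but 95.8% and 89.4% of their WT UMIs came from single barcodes. Of the 10 genes of the adenoma list, *Msx1*, *Nkd1*, *Notum* and *Sox17* had 0 UMIs each in WT *Lyz1*-rich barcodes and 47, 44, 31 and 17 in those of *LApcL*, and *Wfdc18* had 0 and 16, while *Prox1* had 1 and 8. *Wif1*, *Dkk2*, *Dkk3* and *Lef1* had 0 in both. In *LApc* *Msx1* had 6 UMIs and *Sox17* 3, each within 1 barcode, which came to 119 and 59.4 CPM, and *Nkd1* and *Notum* had 0. In *LApcL* *Msx1*, *Nkd1*, *Notum* and *Sox17* were at 131, 123, 86.3 and 47.3 CPM, where *Lyz1*-poor barcodes had 61.0, 25.3, 21.6 and 50.8 CPM. After thinning, *Sox17* was found in 13.6% (5.17 to 27.4%) of *LApcL* *Lyz1*-rich barcodes and in 12.5% of enterocyte-like ones. *Msx1* was found in 31.8% (18.6 to 47.6%) against 9.97%. *Sox17* in the *Lyz1*-rich barcodes thus did not stand clear of the enterocyte-like value, while *Msx1* did. The part of free RNA in these values was not tested. *Apc* had 5, 1 and 14 UMIs and *Lef1* 0, 1 and 0 in the *Lyz1*-rich barcodes, and 3′ reads outside a deleted exon do not check the deletion.

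The *LApc* library gave 8 *Lyz1*-rich barcodes, in which 50 CPM is fewer than 3 UMIs, so single barcodes decide many of its values. *Muc2* was higher than in WT by log2 0.59 (0.46 to 0.72), against 0.24 in *Lyz1*-poor barcodes, and *Mmp7* was lower at −0.56 (−1.07 to −0.09), against −0.12. *LApcL* over *LApc* gave 2.40 (1.95 to 2.90) for *Mmp7*, 2.89 (2.35 to 3.48) for *Ang4* and −1.79 (−1.93 to −1.64) for *Muc2*, where *Lyz1*-poor barcodes had −0.11, 0.74 and −0.47. In these 3 genes *LApcL* thus differed from both other libraries in 1 direction. The *S100g* value of *LApc*, 9360 CPM, came almost wholly from 1 barcode.

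Within *LApcL*, the 19 barcodes with *Muc2* under 0.1% and the 25 above differed unevenly in goblet genes. *Zg16* stood at 559 and 36629 CPM, a log2 ratio of −6.03 (−6.38 to −5.70), *Clca1* at 22.7 and 1609 CPM, and *Spink4* at 5873 and 24959 CPM. In enterocyte-like barcodes of *LApcL*, *Zg16* stood at 453 CPM, close to the *Muc2*-low value. *Fcgbp* and *Agr2* remained at 4240 and 4157 CPM in the *Muc2*-low barcodes, against 9894 and 6309 CPM, and *Guca2a*, a guanylin hormone of goblet cells, was at 4837 against 5608 CPM. So *Zg16* was near the free RNA level in the *Muc2*-low barcodes, while *Fcgbp*, *Agr2* and *Guca2a* were lower by less than 3-fold.

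Paneth and precursor genes ran the other way in part. *Mmp7* was higher in the *Muc2*-low barcodes by log2 0.57 (0.42 to 0.72) and *Ang4* by 0.52 (0.37 to 0.67), but *Defa20* was lower at −1.67 (−1.90 to −1.45). *Sox4*, *Hes6* and *Cd24a*, known from crypt precursors, had 1.86 (1.01 to 2.75), 1.09 (0.55 to 1.63) and 0.87 (0.57 to 1.16). *Msx1* and *Notum* had 2.01 (1.07 to 3.03) and 2.07 (0.89 to 3.37), and *Atoh1*, the secretory master regulator, 1.06 (0.21 to 1.92). High doublet scores were given to 0 of 19 *Muc2*-low barcodes, which allows a share of up to 15.8% by the floor of 3 counts (exact upper bound 17.6%), and to 9 of 25 *Muc2*-high ones (36%, interval 18.0 to 57.5%). The part of doublets in these values was not tested.

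*Muc2* and *Zg16* were lowest where *Lyz1* was highest in *LApcL*. In the bands of 0.2 to 0.5%, 0.5 to 1%, 1 to 2% and 2% or more (15, 8, 8 and 13 barcodes), *Zg16* stood at 30109, 40095, 11164 and 1407 CPM and *Muc2* at 4626, 3262, 2887 and 1226 CPM. *Mmp7* in the same bands stood at 2112, 2829, 6072 and 7525 CPM. In WT, which had only the lower pair of bands (38 and 7 barcodes), *Zg16* stood at 41226 and 6388 CPM, *Muc2* at 8039 and 4342 CPM and *Mmp7* at 1153 and 1059 CPM. *Zg16* and *Muc2* were thus lowest in the top band of both libraries, and *Mmp7* was highest in the top band of *LApcL* alone. As each band holds few barcodes, these values are descriptions.

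Just under the *Tff3* limit, barcodes with the same *Lyz1* and *Defa24* limits were most numerous in *LApcL*. At 1 to 2% *Tff3* there were 6, 6 and 64 such barcodes in WT, *LApc* and *LApcL*, and at 0.5 to 1% there were 5, 9 and 79. In *LApcL* their median *Muc2* share was 0.0344% and 0.00995%, and their median *Mmp7* share 0.348% and 0.215%, beside 0.155% and 0.406% in the *Lyz1*-rich barcodes. The 25 *Muc2*-high *Lyz1*-rich barcodes had a median *Muc2* share of 0.454%, which the choice on *Muc2* fixed to be high. Their median *Zg16* share was 1.26%, against 0.0402% at 1 to 2% *Tff3*. As those barcodes were not chosen on *Muc2*, this is a description only. *Muc2* was thus lower at lower *Tff3*, while *Mmp7* stayed well above the 0.0145% of *Lyz1*-poor barcodes.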

How the data were processed

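Chromium 3′ libraries of EpCAM-sorted small intestinal epithelium from 1 mouse per genotype were used. The deposited values are raw UMI counts per gene and barcode, made by the authors with Cell Ranger 2.1.1 on an mm10 reference (the submitters' processing notes and the study's methods). The kit version of each library is not given in the sources used here. The deposited barcodes numbered 11453 in WT, 13214 in *LApc* and 17388 in *LApcL*. Barcodes with 500 or more genes and at most 20% mitochondrial UMIs were kept (11391, 10864 and 16972). The members and gene lists were chosen with earlier results of these data known, and members were selected on *Tff3*, *Lyz1* and *Defa24*, so contrasts with other barcodes are descriptions.

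Counts were summed per group and library with Python 3.11.15, numpy 2.4.6 and scipy 1.17.1. CPM have exact Poisson intervals, shares Clopper-Pearson intervals and ratios conditional binomial intervals (95%). A count of 0 was read as up to 3 counts. Doublet scores came from Scrublet in scanpy 1.11.5 (0.8% per 1000 barcodes), marking each library's highest scores at that expected rate. No barcode was removed for its score. Enterocyte-like barcodes had *Tff3* and *Defa24* under 0.5% and 5% and a summed *Fabp1*, *Rbp2* and *Apoa1* share of at least 2%. Of 217 list genes 216 were in the tables of 27998 genes. Named genes were list genes, the 10 highest and 10 lowest ratios nearest 0 over the libraries per contrast, and the 8 highest and lowest per library pair. *Sct* and *Apc* were named outside this rule. *Lyz1*, *Tff3* and *Defa24* were left out of counts and medians. Interval and ratio code was tested on simulated counts.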

Additional observations from a re-analysis of the deposited data

How the results depend on the processing

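No paired analysis was possible because each group has 1 library and the replicate numbers only name them. Depth limits *LApc* most, and with 1 mouse per genotype no ratio has a replicate check. Below, "all-library calls" are genes past 2-fold in all 3 libraries against *Lyz1*-poor barcodes (11 higher, 11 lower in the report), medians are of log2 ratios over the Paneth or goblet list against those barcodes, and *LApcL*/WT values are within *Lyz1*-rich barcodes. The cause of a change was not tested.

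With *Lyz1* at 0.1% or more, the shares were 3.78%, 1.21% and 7.05% in WT, *LApc* and *LApcL*, all-library calls 3 lower, the Paneth median in *LApcL* 1.48, *LApcL*/WT calls 67 higher and 48 lower with a Paneth median of −1.01, and *Spink4* in *LApcL* reversed to 0.0902. With *Lyz1* at 0.5% or more (7 WT and 2 *LApc* barcodes), shares were 0.196%, 0.105% and 2.80%, all-library calls 4 higher, the Paneth median 0.0557 in *LApc* and reversed to −0.0358 in WT, the WT goblet median −0.98, *Ang4* in WT reversed to −1.42, and *LApcL*/WT calls 275 higher and 268 lower with a Paneth median reversed to 0.59. With *Tff3* at 4% or more, the *LApcL* share was 1.85%, all-library calls 4 higher, Paneth medians 0.78, 1.54 and 0.84, *Spink4* in *LApcL* reversed to 0.34, and *LApcL*/WT calls 241 higher with a Paneth median reversed to 0.15 and a goblet median of −0.32. With *Defa24* under 1%, shares were 0.816% in WT and 0.114% in *LApc*, all-library calls 4 higher, Paneth medians 0.13 in WT and 0.39 in *LApc*, and *LApcL*/WT calls 142 lower with a Paneth median of −0.74.

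At most 10% mitochondrial UMIs and 1000 or more genes each gave 7 lower all-library calls, the latter with a Paneth median of 0.60 in *LApc*. Choosing barcodes after thinning to 3000 UMIs gave 5 higher and 4 lower calls, with Paneth medians reversed to −0.0377 in *LApc* and at 0.87 in *LApcL*. Without the highest doublet scores there were 6 higher and 6 lower calls, a Paneth median of 0.36 in *LApc* and an *LApcL*/WT Paneth median of −0.12. TMM scaling gave 17 lower calls, Paneth medians of 0.62 in *LApc* and 0.85 in *LApcL*, a goblet median of −1.03 in *LApc*, and 155 lower *LApcL*/WT calls with a Paneth median of −0.71. Without the CPM minimum there were 49 higher calls, Paneth medians of 1.55 in *LApc* and 1.36 in *LApcL*, and *LApcL*/WT calls of 1858 higher and 851 lower. Leaving out 1 library gave 13 to 24 higher and 15 to 28 lower calls, the most without WT, as fewer libraries had to pass.

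Alternatives chosen after the data were seen moved these values: weighting *Lyz1*-poor barcodes to the *Tff3* shares gave goblet medians of −0.0839 in *LApc* and −0.29 in *LApcL* and a Paneth median of 1.497 in *LApcL*. Members with *Muc2* at 0.1% or more gave a Paneth median of 1.92 in *LApcL* and *Spink4* reversed to 0.0908. Without the *LApcL* barcode highest in *Lyz1* the *LApcL*/WT Paneth median was −0.74. *Mmp7*, *Muc2*, *Zg16*, *Clca1*, *Cd24a*, *Rnase1* and *Fabp1* kept their direction against *Lyz1*-poor barcodes in WT and *LApcL* under every alternative run.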

Other observations

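Some enteroendocrine transcripts were uneven between single *Lyz1*-rich barcodes. *Gip* had 958 UMIs in the 45 WT barcodes, 95.8% of them in 1, and 21 UMIs over 17 of 44 *LApcL* barcodes. *Chgb* had 81 UMIs in 9 WT barcodes. *Sct*, secretin, was found after 1 random thinning to 3000 UMIs in 64.4% (48.8 to 78.1%) of *Lyz1*-rich barcodes of WT. The *Lyz1*-poor value was 60.4% (58.8 to 62.1%), and before thinning the WT values were 91.1% and 88.5%. In *LApcL* the same draw found it in 70.5% (54.8 to 83.2%) against 42.9% (39.8 to 46.1%), and before thinning it was in 86.4% against 67.1%. A separate draw found *Sct* in 35 of 44 *Muc2*-high and 1 of 1 *Muc2*-low *Lyz1*-rich barcodes of WT. In *LApcL* that draw found it in 15 of 25 and 15 of 19, so the WT share in particular moved with the draw. In enterocyte-like barcodes of *LApcL*, *Sct* was found after thinning in 19.8%. The enteroendocrine list summed to 2950 CPM in WT *Lyz1*-rich barcodes and to 150 CPM in those of *LApcL*. The WT sum was mostly *Gip* from the 1 barcode named above.

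The proliferation genes *Mki67* and *Top2a* were at similar detection in both groups. *Mki67* had a UMI after thinning in 8.89% (2.48 to 21.2%) of WT and 13.6% (5.17 to 27.4%) of *LApcL* *Lyz1*-rich barcodes. The *Lyz1*-poor values were 9.33% and 8.18%. A separate draw found *Mki67* in 5 of 44 *Muc2*-high and 1 of 1 *Muc2*-low WT barcodes. In *LApcL* that draw found it in 2 of 25 and 0 of 19, so the order of the libraries was not fixed. *Top2a* was found in 11.1% and 11.4%, against 12.8% and 10.5%. *Olfm4*, a stem cell marker, had 1 UMI in WT and 0 in *LApcL* *Lyz1*-rich barcodes.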
